A study of Mus musculus with 6 samples.

Results

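Mouse spermatogonial stem cell (SSC) cultures were deprived of glial cell line-derived neurotrophic factor (GDNF) and then given it back. Under the limits below, 265 long non-coding RNAs (lncRNAs) had a level after re-addition at least 1.5 times that of every other sample. They are 265 of the 73710 transcripts listed in any of the 6 samples. Members were chosen on CPM, the count of a transcript divided by the total count of its sample and multiplied by 1000000. A member was shorter than 10000 bp, reached at least 50 counts in at least 2 samples, and had a lowest CPM after re-addition at least 1.5 times the highest CPM of the 4 other samples. The 30 most abundant transcripts and a few transcripts set aside by name could not be members, and 0 of those set aside passed the 1.5-fold criterion. Of 12797 transcripts that met the length, count and exclusion criteria, 2.07% were members. The same rule turned round, with the samples after re-addition lowest, found 201 transcripts.

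The cells were Thy1-positive germ cells of C57BL/6 mice aged 6 to 8 days, isolated from 5 animals per the labels. The paper's methods give C57BL/6 mice or a transgenic strain as the source of SSC cultures, without saying which was sequenced. The cells were grown for 10 to 20 passages on STO feeder cells, a mouse fibroblast line. They were propagated in a serum-free medium with GDNF at 20 ng/ml, GFRA1 at 150 ng/ml and FGF2 at 1 ng/ml, and the labels name GDNF as the factor that was withdrawn. Normal cultures (N) kept GDNF, the 0h cultures went without GDNF for 18 h, and the 8h cultures went without it for 18 h and were then exposed to it again for 8 h. Each condition had 2 replicates, described in the methods as independently established cultures, and germ cells were pipetted off the feeder layer before RNA was extracted. The design asks which transcripts follow the factor when it is removed and returned.

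GDNF is a ligand made by somatic cells of the testis. It binds the co-receptor GFRA1 on undifferentiated spermatogonia, GFRA1 presents it to the receptor tyrosine kinase RET, and the resulting signal sustains self-renewal and survival of SSCs. LncRNAs are transcripts without a long open reading frame. Some act on chromatin or on transcription of genes near them, others act in the cytoplasm, and for most no function is known. The identifiers here, from the NONCODE catalogue (starting with n) or from transcript assembly (starting with TCONS), carry no gene names, positions or strand, so no function is assigned to any member.

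The samples held a median of 8071863 counts on lncRNAs, the deepest 1.11 times the shallowest, and 58925 to 62036 listed transcripts each. At these depths 3 counts correspond to 0.353 to 0.390 CPM. The 30 most abundant transcripts took 33.67% to 36.46% of each sample. The tables analysed here hold lncRNAs and no mRNAs, so germ cell and feeder cell markers were not examined and the labelled cell type could not be checked. These are bulk RNA samples, in which fewer cells of a type and less RNA per cell cannot be told apart, and reads from mouse feeder cells cannot be told apart from germ cell reads.

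Together the 265 members made up 0.3146% and 0.2985% of the counts of the N replicates, 0.2727% and 0.2840% of the 0h replicates, and 0.7186% and 0.6755% of the 8h replicates. In both replicates the share was highest in 8h, which the choice of members fixes. Individual members were of low abundance, which outside 8h is partly set by their choice. The rule caps their N and 0h levels. In 122 members only the 8h samples reached 50 counts, as in 247 of the 12797 transcripts meeting the length, count and exclusion criteria. Their mean CPM had medians of 5.31 (N), 4.70 (0h) and 12.5 (8h), against 16.2, 16.0 and 16.5 for the 12532 other transcripts that met the length, count and exclusion criteria. In 8h the levels ran from 6.50 to 688 CPM, with 10 members at 100 CPM or more and 189 below 20 CPM. The 10 most abundant members held 34.05% of the members' summed CPM in 8h.

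**Figure D1:**
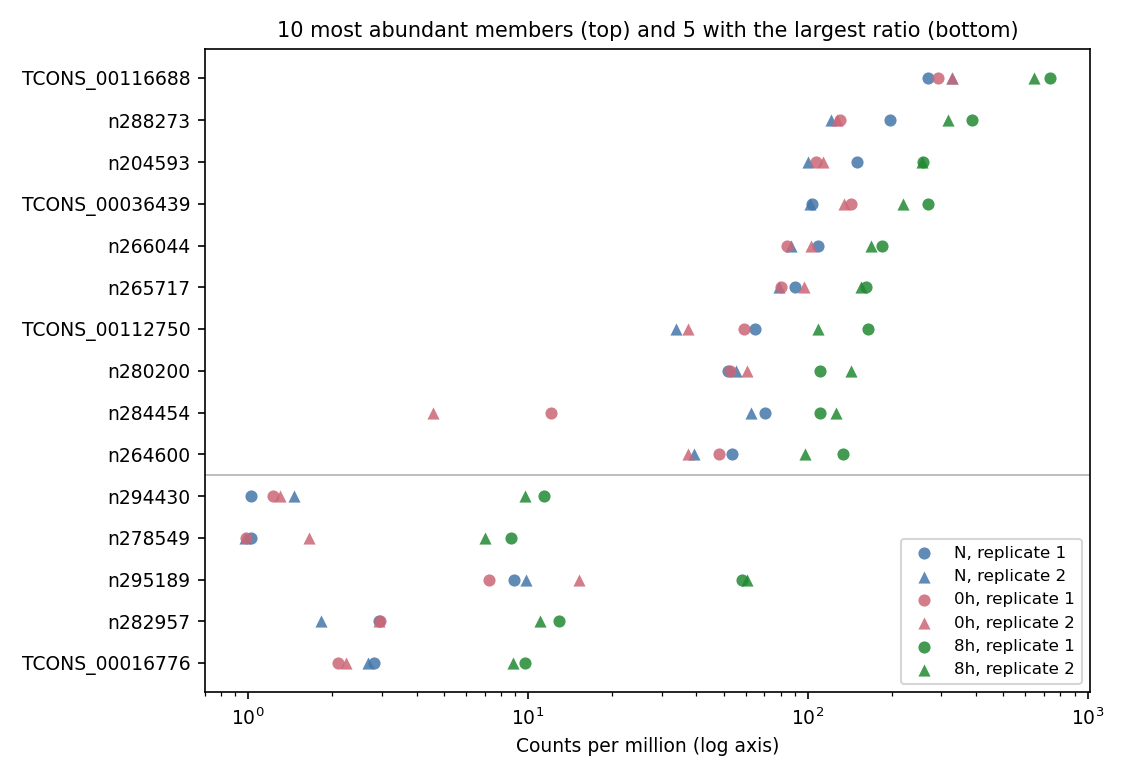
CPM on a log axis in each of the 6 samples for the 10 most abundant members (above the line) and the 5 with the largest ratio of lowest 8h to highest other CPM (below it). Colours mark the condition, circles replicate 1 and triangles replicate 2. In each member both 8h points lie above all N and 0h points, as the choice of members requires.

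The most abundant member was TCONS_00116688, an assembled transcript of 3352 bp. It was at 269 and 327 CPM in N, 293 and 328 CPM in 0h, and 732 and 644 CPM in 8h. The N and 0h samples overlapped, and both 8h samples stood apart from them. This single transcript carried 9.87% of the summed CPM of all members in 8h. Reads covered 67.8% and 76.2% of its length in N, 71.9% and 62.4% of it in 0h, and 89.4% and 88.0% of it in 8h.

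The next in abundance, n288273 (2761 bp), was at 197 and 121 CPM in N, 131 and 127 CPM in 0h, and 386 and 316 CPM in 8h. Its N replicates differed more from each other than its 0h replicates did. The third, n204593 (743 bp), was at 150 and 100 CPM in N, 107 and 113 CPM in 0h, and 258 and 257 CPM in 8h. Both NONCODE transcripts had overlapping N and 0h samples and their highest value outside 8h in N replicate 1. TCONS_00036439 (7377 bp) had another order, with 103 and 102 CPM in N, 143 and 135 CPM in 0h, and 269 and 219 CPM in 8h. Its samples did not overlap between any of the 3 conditions and lay in the order N, 0h, 8h.

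The 6 other members at 100 CPM or more were n266044, n265717, TCONS_00112750, n280200, n284454 and n264600. In n265717 the samples were close to each other within a condition, at 90.2 and 78.9 CPM in N, 80.0 and 96.9 CPM in 0h, and 161 and 155 CPM in 8h. The transcript n266044 was at 109 and 87.1 CPM in N, 84.3 and 103 CPM in 0h, and 185 and 168 CPM in 8h. N and 0h overlapped in both. For n280200 the values were 51.7 and 55.6 CPM in N, 52.7 and 60.7 CPM in 0h, and 111 and 143 CPM in 8h. In n264600 they were 53.8 and 39.0 CPM in N, 48.2 and 37.4 CPM in 0h, and 133 and 97.9 CPM in 8h. These 2 transcripts also had N and 0h samples that overlapped, and their 8h replicates lay further apart than those of n265717.

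On a scale that divides by transcript length, RPKM (reads scaled by transcript length and by the total count), the order of abundance changed. The highest mean RPKM in 8h was that of n204593, at 347 ± 0.917 (SD, n = 2), against 168 ± 47.2 in N and 148 ± 5.99 in 0h. TCONS_00116688 followed at 205 ± 18.6 RPKM in 8h, from 88.9 ± 12.4 in N and 92.6 ± 7.51 in 0h. TCONS_00006317, of only 835 bp, reached 120 ± 30.5 RPKM in 8h, against 54.3 ± 0.660 in N and 56.2 ± 3.88 in 0h. The long TCONS_00036439 was at 33.1 ± 4.73 RPKM in 8h. Over all members the median RPKM in 8h was 6.86, against 9.11 for the other transcripts that met the same length, count and exclusion criteria.

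The members with the largest separation were of low abundance outside 8h. The ratio of the lowest 8h CPM to the highest CPM elsewhere was largest for n294430 (440 bp), with 8 and 12 counts in N, 10 and 11 counts in 0h, and 88 and 78 counts in 8h. Its ratio was 6.68. N and 0h were alike in level at these counts, and both 8h samples were far above them. The transcript n278549 had 8 and 8 counts in N, 8 and 14 counts in 0h, and 67 and 56 counts in 8h, a ratio of 4.25. The transcript n295189 (2326 bp) was better counted, with 70 and 81 counts in N, 59 and 129 counts in 0h, and 449 and 484 counts in 8h, a ratio of 3.85. Its 0h replicates lay on both sides of its N replicates. The remaining 2 of the 5 with a ratio of at least 3 were n282957 and TCONS_00016776. In N, 0h and 8h the former had 23 and 15, 24 and 25, and 99 and 88 counts. The latter (355 bp) had 22 and 22, 17 and 19, and 75 and 71 counts.

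Most members sat closer to the limit. The ratio had a median of 1.71, with an upper quartile of 1.96. It was at least 2 in 59 members and below 1.6 in 66. Just inside the limit were n416648 and n277742, both at 1.5003, and TCONS_00023658 at 1.5028. Just outside were TCONS_00126233 at 1.4997, n294465 at 1.4991 and TCONS_00057335 at 1.4983. The member n277742 had 34 and 27 counts in N, 42 and 39 counts in 0h, and 71 and 62 counts in 8h. The non-member TCONS_00126233 had 40 and 29 counts, 28 and 46 counts, and 80 and 65 counts in the same order. A few reads therefore separated members from non-members at the limit.

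The log2 fold change of 8h over 0h had a median of 1.24 over the members and ranged from 0.59 to 5.72, and that of 8h over N had a median of 1.15 and ranged from 0.64 to 3.00. The value of 5.72 belongs to TCONS_00051642, with 2 counts in all of 0h, and depends on the prior count of the fit. These are edgeR estimates, and since the choice of members used both contrasts they are a description with no test. The highest sample outside 8h was an N sample in 163 members and a 0h sample in 102. The comparison by replicate used CPM, a scaling other than that of the edgeR estimates. In both replicates, 158 members were at least 2-fold higher in 8h than in 0h. At least 2-fold higher than in N were 145, and 95 met both. At least 4-fold differences in both replicates were found for 18 members over 0h and 6 members over N.

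A count minimum shaped which transcripts could be members. In 122 members only the 8h samples reached 50 counts, so these entered through the condition in which they were high. They were 122 of 247 transcripts that met the count criterion in this way. By contrast, 86 members had at least 50 counts in all 6 samples. One member, TCONS_00051642, was absent from 0h replicate 2 and given a count of 0, and the other 264 were detected in all 6 samples.

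Assembled transcripts were frequent among the members. Of the 265, 99 (37.4%) were NONCODE lncRNAs and 166 (62.6%) were assembled and predicted to be non-coding, whereas 60.3% of the other transcripts meeting the length, count and exclusion criteria were NONCODE lncRNAs. Among all 39310 transcripts tested, 38.7% were NONCODE lncRNAs. The share of each kind therefore depended on the set it was read against, and it was not tested. NONCODE members had a median of 16.2 CPM in 8h and assembled members 11.2 CPM. Their log2 fold changes of 8h over 0h had medians of 1.14 and 1.27. Median lengths were 1943 bp and 1927 bp.

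Member length ran from 227 bp (TCONS_00013697) to 7792 bp (TCONS_00142061), with a median of 1931 bp. The median of the other transcripts meeting the same criteria was 2115.5 bp. The shortest had 54 and 42 counts in N, 32 and 30 counts in 0h, and 109 and 103 counts in 8h. Its 0h counts were both below its N counts. The longest was at 22.7 and 19.8 CPM in N, 16.3 and 20.8 CPM in 0h, and 42.2 and 44.2 CPM in 8h, so that N and 0h overlapped.

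**Figure D2:**
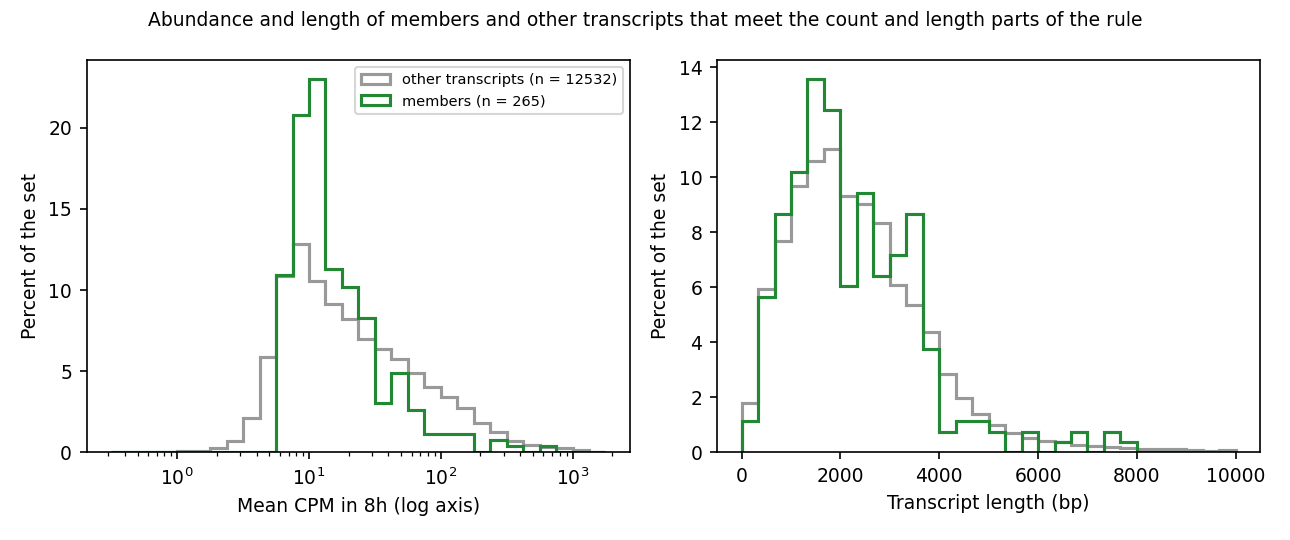
Histograms of mean CPM in 8h (left, log axis) and transcript length in bp (right) as the percent of each set, for the 265 members (green) and the 12532 other transcripts that met the length, count and exclusion criteria (grey). Members are concentrated near 10 CPM, fewer of them than of the others exceed 100 CPM, and the lengths overlap over their range.

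The share of each transcript's length touched by reads was also deposited. Its medians over members were 65.6% (N), 65.0% (0h) and 86.7% (8h), and in the other transcripts meeting the same criteria it was 78.1%, 78.8% and 80.3%. In 182 of 265 members both 8h values were above all 4 others. Coverage grows with read number, so it is not independent of the choice of members. In 8h it was at least 90% in 92 members and below 50% in 18.

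The rule used the N and 0h levels, since it caps the highest of them at the lowest 8h level divided by 1.5, but not their order. The cap bounds the higher of the N and 0h levels and not the lower, so it does not bound the fold between them. Over the members the log2 fold change of 0h over N ran from -4.89 to 1.20. The counts below are of transcripts chosen under this cap. Few members passed the test of 0h against N. The log2 fold change of 0h over N had a median of -0.10 over the members and -0.01 over all 39310 transcripts tested. Testing counts with edgeR's quasi-likelihood test, 4 members (1.51%) fell at a Benjamini-Hochberg FDR below 0.05, against 0.315% of all tested transcripts and 0.821% of those meeting the length, count and exclusion criteria. One of the 4, TCONS_00051642, reached 50 counts only through the 8h samples. Of the 143 members that reached 50 counts in an N or 0h sample, 3 fell (2.1%), against 0.829% of the 12550 transcripts meeting the same criteria. Among all members 0 rose, against 0.237% of all tested and 0.656% of those meeting the length, count and exclusion criteria. At an unadjusted P below 0.05 the same test found 31 members lower (11.7%), against 5.07% of all tested and 7.31% of those meeting the criteria, and 5 higher (1.89%), against 4.84% and 7.55%. At its FDR, DESeq2 found 5 lower (1.89%), against 0.885% of the 24067 transcripts it adjusted and 1.46% of those meeting the criteria, and 0 higher, against 0.765% and 1.31%. Apart from the comparison of the 143, the shares here and below keep the 122 members that reached 50 counts only in 8h. Only 247 of the 12797 transcripts meeting the criteria entered in this way, so the sets differ in how they were chosen. No test was made over the members as a group. The count of lower members was 2 when N replicate 2 or 0h replicate 2 was left out.

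**Figure D3:**
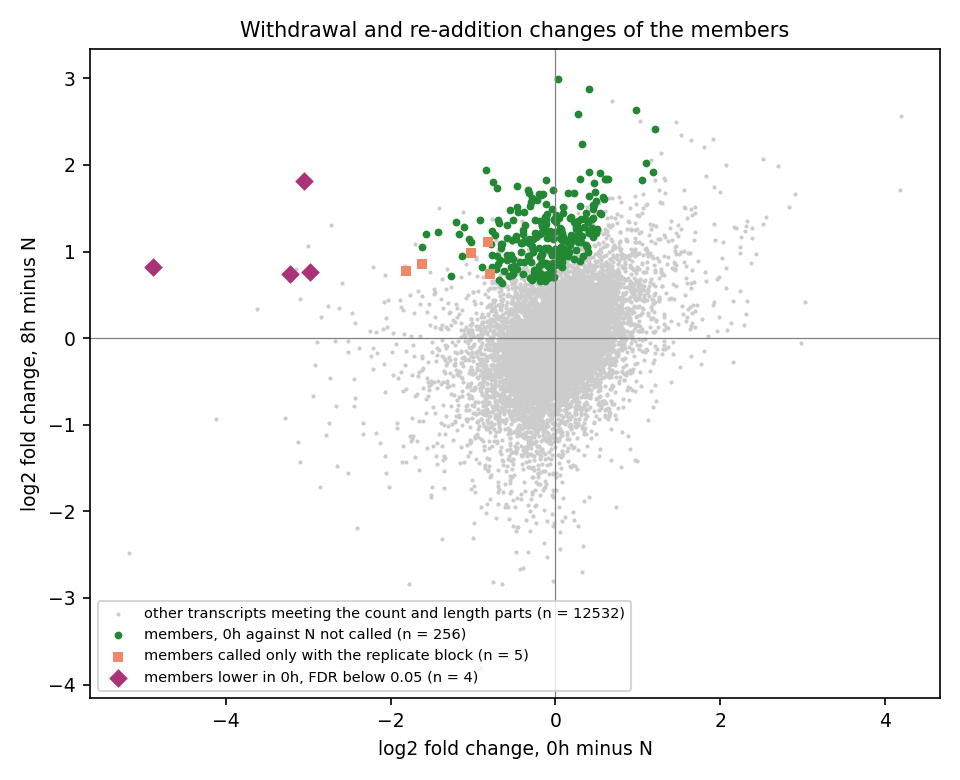
Log2 fold change of 8h over N (vertical) against that of 0h over N (horizontal), from the edgeR fit, for the 265 members (coloured) and the 12532 other transcripts meeting the length, count and exclusion criteria (grey). Both axes use the N samples. Members spread around -0.10 on the horizontal axis, with the 4 lower in 0h (diamonds) at the far left and the 5 called only with the replicate block as squares.

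The criterion of an unadjusted P below 0.05 and a change of at least 2-fold gave 16 members lower in 0h (6.04%), against 3.51% of all tested and 2.69% of those meeting the length, count and exclusion criteria. It gave 4 members higher (1.51%), against 3.08% and 2.31%. The 2 samples of 0h lay below both N samples in 84 members (31.7%, against 21% of all tested and 23.5% of those meeting the other criteria), above both in 37 (14%, against 19% and 21.5%), and overlapped in 144. With 2 samples against 2, an exact permutation test of a single value cannot go below a two-sided p of 0.333.

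Both members with the clearest fall were NONCODE transcripts of moderate abundance. The transcript n284454 (3133 bp) was at 70.4 and 62.8 CPM in N, 12.0 and 4.59 CPM in 0h, and 111 and 127 CPM in 8h. Its 3 conditions did not overlap. Withdrawal lowered it by a log2 fold change of -2.98 ± 0.34 (SE, edgeR, adjusted P = 0.0017). The transcript n290124 (1242 bp) was at 34.5 and 29.8 CPM in N, 4.18 and 2.59 CPM in 0h, and 57.6 and 55.3 CPM in 8h, with a withdrawal change of -3.23 ± 0.28 (SE, edgeR, adjusted P = 0.00036). Its 8h replicates agreed closely and exceeded N by a log2 fold change of 0.74, a smaller step than the fall. Both calls held under every alternative run, including each sample left out. Under the scaling of the edgeR fit, however, n284454 fell below the 1.5-fold criterion for members.

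The other 2 were assembled transcripts with few counts. TCONS_00139672 (2837 bp) had 30 and 61 counts in N, 4 and 7 counts in 0h, and 161 and 167 counts in 8h. Its fall on withdrawal was a log2 fold change of -3.05 ± 0.48 (SE, edgeR, adjusted P = 0.013), and the call was lost without N replicate 2 (adjusted P = 0.124), 0h replicate 1 (0.109) or 0h replicate 2 (0.0945). In 8h it was far above N as well as 0h. TCONS_00051642 (3494 bp) had 32 and 33 counts in N, 2 and 0 counts in 0h, and 51 and 68 counts in 8h. Its level in 0h was 2.97% of that in N (95% exact interval from 0.352% to 11.2%, counting error only), with an edgeR adjusted P of 0.010. This call was lost without N replicate 1 (adjusted P = 0.0647), N replicate 2 (0.0744) or 0h replicate 2 (0.108).

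**Figure D4:**
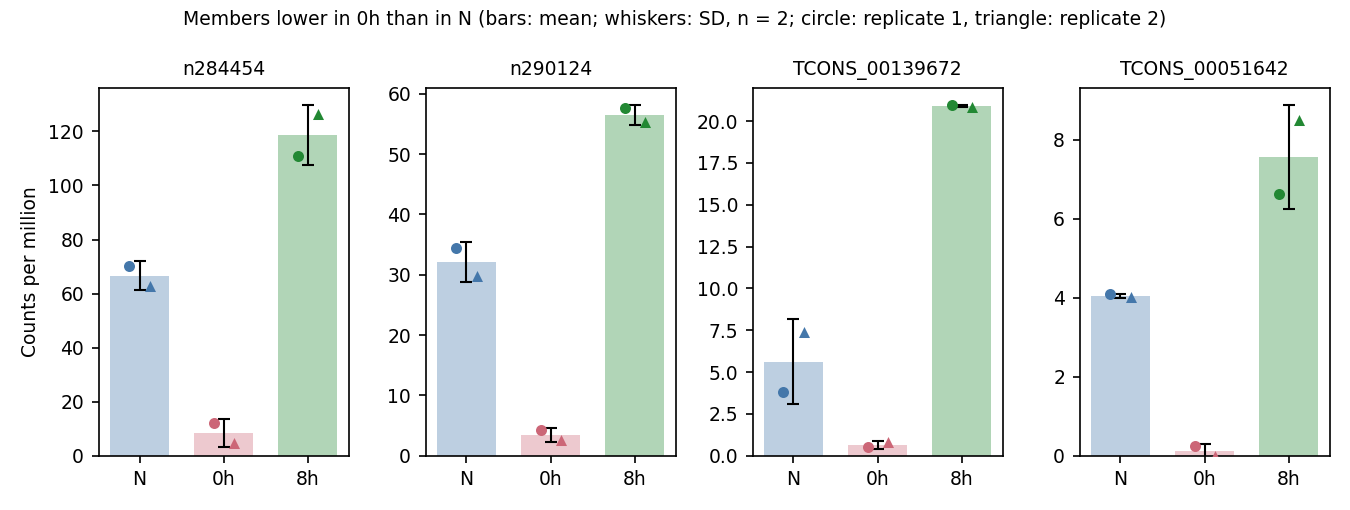
CPM on a linear axis from 0, scaled separately for n284454, n290124, TCONS_00139672 and TCONS_00051642, the 4 members lower in 0h than in N at an FDR below 0.05. Bars are means, whiskers SD (n = 2), circles replicate 1 and triangles replicate 2. In each panel both 0h samples lie below both N samples and both 8h samples lie above them.

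With the replicate number as a block in the edgeR fit, 9 members fell on withdrawal (3.4%), against 1.43% of all tested and 3.49% of those meeting the length, count and exclusion criteria, and 0 rose, against 1.3% and 3.45%. At an unadjusted P below 0.05 the blocked fit found 34 lower (12.8%), against 6.97% of all tested and 11.6% of those meeting the criteria, and 7 higher (2.64%), against 7.02% and 12.6%. The 9 held the 4 above. The 5 others, named after their values were seen, were n275651, n276997, TCONS_00068488, TCONS_00107114 and TCONS_00108669. Their falls were smaller, such as a log2 fold change of -0.80 for n276997 (edgeR with the block, adjusted P = 0.011), which was at 34.2 and 35.6 CPM in N, 19.5 and 20.2 CPM in 0h, and 61.2 and 61.8 CPM in 8h. TCONS_00108669 had 45 and 38 counts in N, 12 and 12 counts in 0h, and 68 and 79 counts in 8h, with a change of -1.82 (edgeR with the block, adjusted P = 0.017). Neither overlapped between conditions. Among the members called with the block, TCONS_00108669 and TCONS_00051642 met the count minimum for members only through the 8h samples. Both therefore entered through the condition in which they were high. The shares of the blocked fit keep them, and for this fit no share was computed without such transcripts.

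The choice of members requires the step in both replicates, so its size in each is a description and not a sign of agreement. The median fold of 8h over 0h was 2.59 in replicate 1 and 2.51 in replicate 2, and that of 8h over N was 2.39 and 2.24. The 8h replicates differed by over 1.5-fold in 20 members. The fold of 8h over the mean of N and 0h differed by over 1.5-fold between the replicates in 41 members. Replicate 1 was the higher 8h sample in 159 members and replicate 2 in 106. These folds and this split use CPM by total counts. TMM, the scaling of the edgeR fit, had a factor of 1.07 for 8h replicate 1 and 1.01 for 8h replicate 2. CPM therefore sets 8h replicate 1 higher relative to 8h replicate 2 than TMM does.

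**Figure D5:**
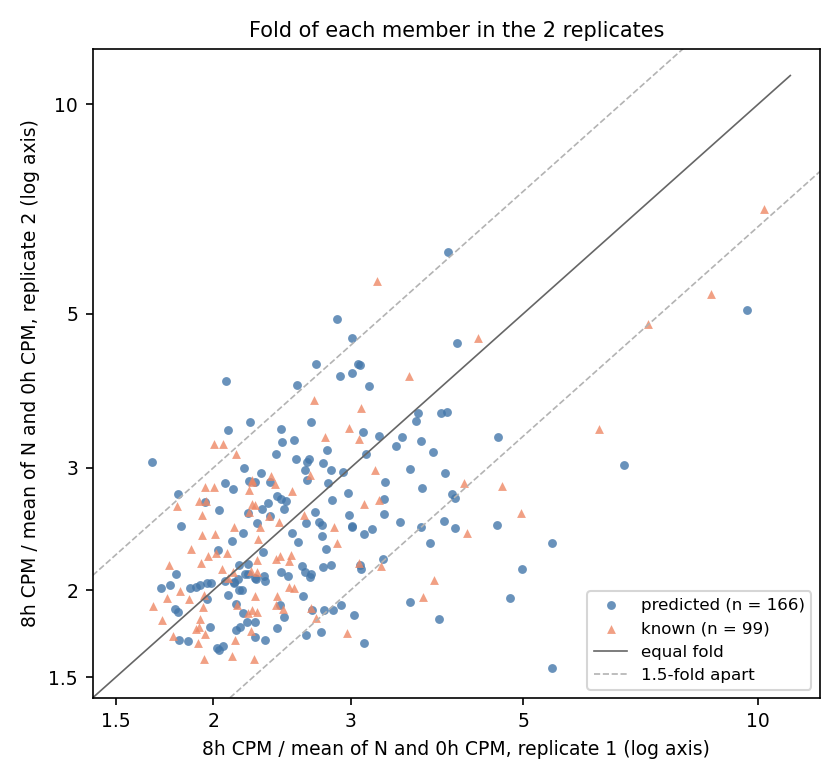
Fold of 8h over the mean of N and 0h in replicate 1 against replicate 2 for the 265 members, both on log axes, with NONCODE (known) and assembled (predicted) members marked. The solid line marks equal folds and the dashed lines a 1.5-fold difference. The medians are 2.44 in replicate 1 and 2.42 in replicate 2, and 41 members differ by over 1.5-fold between the replicates.

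A difference between replicate 2 and replicate 1 across all 3 conditions was called in 2 members (0.755%) by the blocked edgeR fit at an FDR below 0.05, against 2.48% of all tested transcripts and 6.22% of those meeting the length, count and exclusion criteria. At an unadjusted P below 0.05 there were 28 (10.6%), against 13.2% and 23.9%. The median absolute log2 fold change between replicates was 0.18 in members and 0.21 in the others meeting these criteria. The median mean count in N and 0h was 39.5 in members and 132 in those others. The rule also needs all 4 N and 0h samples below both 8h samples, which a large difference between replicates makes harder to meet. Why fewer members were called was not tested. TCONS_00112750 was lower in replicate 2, at 65.0 and 33.8 CPM in N, 59.0 and 37.4 CPM in 0h, and 164 and 109 CPM in 8h, a log2 fold change of -0.71 ± 0.12 (SE, edgeR, adjusted P = 0.0023). Its step after re-addition was present in each replicate. The transcript n275651 (3236 bp) was higher in replicate 2, at 27.8 and 37.3 CPM in N, 9.95 and 26.6 CPM in 0h, and 61.7 and 86.3 CPM in 8h, a change of 0.74 ± 0.16 (SE, edgeR, adjusted P = 0.015). That call was lost without 0h replicate 1 (adjusted P = 0.182) or 0h replicate 2 (0.185).

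Some members carried consecutive TCONS numbers, 6 pairs in all. Transcripts numbered side by side in an assembly can be neighbours or overlap, and reads they share cannot be told apart here. The longest pair, TCONS_00142060 (6950 bp) and TCONS_00142061, was at 29.6 and 31.6 CPM in N, 23.2 and 33.7 CPM in 0h, and 59.9 and 55.8 CPM in 8h for the first, with the values of the second given above. Both had N and 0h samples that overlapped. TCONS_00031499 (1411 bp) was at 2.94 and 1.95 CPM in N, 4.67 and 5.65 CPM in 0h, and 10.8 and 10.2 CPM in 8h. Its partner TCONS_00031500 (700 bp) was at 3.32 and 1.58 CPM in N, 4.92 and 2.47 CPM in 0h, and 10.5 and 7.99 CPM in 8h. Compared replicate by replicate, both lay higher in 0h than in N, and over all samples N and 0h overlapped for the second.

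In the pair TCONS_00087428 (1387 bp) and TCONS_00087429 (1005 bp), 8h levels were 20.6 and 18.6 CPM for the first and 14.4 and 12.7 CPM for the second, and each N and 0h sample of the pair was below these values. The pairs TCONS_00013680 and TCONS_00013681, TCONS_00075783 and TCONS_00075784, and TCONS_00085210 and TCONS_00085211 stood between 7.24 and 28.2 CPM in 8h. Paired members were counted separately, and whether each pair is 1 transcribed unit was not tested.

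Transcripts numbered next to a member were then examined without the 1.5-fold criterion. Of 81 such tested transcripts that were not members, 32 (39.5%) had both 8h samples above all 4 others, against 3396 of 23916 (14.2%) assembled non-members tested. Their log2 fold change of 8h over 0h had a median of 0.52, against 0.02. Restricted to transcripts meeting the length, count and exclusion criteria, the shares were 10 of 20 and 680 of 4971 (13.7%). Counts of TCONS_00139673, numbered next to TCONS_00139672 and named for that reason after its values were seen, were 33 and 42 for N, 11 and 7 for 0h, and 73 and 55 for 8h. As in its neighbour, both 0h samples were lowest and both 8h samples highest. Whether neighbours share reads was not tested.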

How the data were processed

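RNA of 6 mouse SSC cultures (N, 0h and 8h, n = 2 each) was ribosomal RNA-depleted, primed with random hexamers and sequenced on an Illumina HiSeq. The authors deposited, for each sample, counts of reads per lncRNA (NONCODE transcripts and Cufflinks assemblies classed as non-coding by Coding Potential Calculator). The authors also deposited RPKM values and the percent of each transcript covered by reads, whose coverage was taken as given. The aligner, the counter and the genome build are not given in the sources used here. Absent transcripts were given a count of 0.

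The members and lists were chosen with earlier results of these data known. Named transcripts were the 10 most abundant members in 8h by CPM, the 5 with the largest ratio of lowest 8h to highest other CPM, the 5 highest by RPKM, the 5 most abundant NONCODE members, those called in 0h against N or between replicates (up to 5 per direction), those next to the threshold, the consecutive pairs, and the longest and shortest.

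Counts were tested with edgeR 4.0.16 (R 4.3.3, quasi-likelihood, TMM, 1 fit of 3 groups) on the 39310 transcripts reaching 10 counts in 2 or more of the 6 samples, with Benjamini-Hochberg adjustment over all of them. DESeq2 1.42.0, a replicate block, other filters, other scalings and leaving out each sample were alternatives. The script was checked on simulated data. Replicate pairs differed beyond sampling noise (chi-square per degree of freedom 9.46 to 13.4 over 12796 degrees of freedom), so none was merged. The methods name 2 independent cultures, and same-numbered samples deviated together, with correlations of 0.16 (N and 0h), 0.174 (N and 8h) and 0.19 (0h and 8h) over tested transcripts, so the numbers were treated as pairing. P-values cover the spread between these samples only. Depth had a median of 8071863 counts per sample.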

Additional observations from a re-analysis of the deposited data

How the results depend on the processing

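The number of members depended on the rule. It was 116 with a minimum of 100 counts, 1367 with 10 counts, 59 with a ratio of 2, 622 with a lower ratio, and 312 to 421 with 1 sample left out, the most without 8h replicate 2. Scaling by TMM gave 205 and by DESeq2 size factors 212, all of them among the 265. The abundant members n284454 and TCONS_00036439 fell below the 1.5-fold criterion under both of these scalings. TCONS_00051642, also called lower on withdrawal, fell just below it under TMM. With 8h replicate 1 or 8h replicate 2 left out, 143 of the 265 remained, since the others reached 50 counts only in the 8h samples. Members lower on withdrawal numbered 9 with the replicate block, 7 with no count filter, 2 to 4 with 1 sample left out, and 31 at an unadjusted P, an alternative chosen after seeing the data, which gave 5 higher. Members called between replicates numbered 4 with no count filter, 7 with a minimum of 50 counts and 2 to 4 with 1 sample left out (4 without 8h replicate 1 or 8h replicate 2). The median log2 fold change of 8h over 0h was 1.33 scaled by total counts and 1.21 to 1.28 with 1 sample left out, and that of 8h over N was 1.23 and 1.10 to 1.15. No result reversed. The causes of the other changes were not tested. With 2 samples per condition, whether members that were not called changed on withdrawal, also by 2-fold, is not settled by these data. In simulated counts the withdrawal test recovered 39% of changes of 1 log2 unit and 93% of changes of 2 log2 units. The changed transcripts there were drawn from those meeting the length, count and exclusion criteria. The spread simulated for them was set beforehand, below the common coefficient of variation between replicates of 31.5% in the edgeR fit. Recovery in these data can therefore be lower. Members were counted less, with a median mean count in N and 0h of 39.5, against 132 for the others meeting these criteria.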
